A study of Mus musculus with 11 samples.

Results

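The 10 genes described here encode carriers that take amino acids back from the urine in the proximal tubule of the kidney, or their partner subunits: Slc3a1, Slc3a2, Slc7a7, Slc7a8, Slc7a9, Slc7a12, Slc7a13, Slc6a18, Slc6a19 and Slc1a1. They were chosen by gene symbol from the 16475 genes with a row of values, and all 10 had a row. Expression was measured on Affymetrix arrays in 11 whole kidneys of mice that had no proteinuria, from a study of lupus nephritis in crossbred mouse strains. NZB/W was represented by 7 kidneys of F1 mice aged 6 weeks, females in the study's account, and NZW/BXSB by 4 kidneys of F1 mice aged 8 weeks, males in the study's account. Both strains develop lupus nephritis without any transgene or treatment, and BXSB males pass on the Yaa locus of the Y chromosome, which speeds the disease. The study flushed the mice with saline before the kidneys were taken. Age, sex, strain and the scale of the deposited values all changed at once between the groups, so their parts in any difference between the groups cannot be told apart. In RNA of a whole organ, fewer cells of a type and less RNA per cell cannot be told apart either.

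Amino acids filtered at the glomerulus are taken up across the brush border of proximal tubule cells and leave on the blood side. Several of the carriers are heteromers, in which a heavy chain of the Slc3 family brings a catalytic light chain of the Slc7 family to the membrane. The Slc6 carriers of the brush border take up neutral amino acids with sodium and need collectrin (Tmem27) in the kidney, and Slc1a1 takes up glutamate and aspartate. In humans, defects of SLC3A1 or SLC7A9 cause cystinuria, of SLC7A7 lysinuric protein intolerance, of SLC6A19 Hartnup disorder and of SLC1A1 dicarboxylic aminoaciduria.

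The values as deposited did not lie on 1 scale in the 2 strains. The median of the 14419 genes tested, those called above baseline by the authors in at least 1 strain, was 7.38 ± 0.01 in the arrays of NZB/W (SD, n = 7) and 8.08 ± 0.04 log2 units in those of NZW/BXSB (SD, n = 4). All values below are therefore log2 values after quantile normalization over the 11 arrays, called the common scale, unless the deposited scale is named. Differences, with their standard error, are those of NZB/W less NZW/BXSB, and a gene was called where the limma p, adjusted with Benjamini-Hochberg over all tested genes, was below 0.05. Over all tested genes the common scale gave calls for 69.4%, with 33.3% of the tested genes on the higher and 36.1% on the lower side for NZB/W, so that a call alone does not set a gene apart.

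All 10 transporter genes were above baseline in both strains, and 9 were called. Of these, 7 were higher in NZB/W (Slc3a1, Slc3a2, Slc7a7, Slc7a8, Slc7a9, Slc7a12 and Slc6a18) and 2 were lower (Slc7a13 and Slc1a1), while Slc6a19 was not called. Their median difference was 0.54, against -0.01 over all tested genes. In 8 of the 10 the kidneys of the strains did not overlap, a trait shared by 54.6% of all tested genes. With the sizes of the study's limits (at most 0.001, here for the limma adjusted p and not for the q-value of the study's own method, and a fold of at least 1.4 or at most 0.7), 5 of the 10 were called, against 27.9% of all tested genes, namely Slc3a2, Slc7a7, Slc7a9 and Slc7a12 as higher and Slc7a13 as lower in NZB/W. The directions depend on the scale: on the deposited values 1 transporter was called higher and 5 lower in NZB/W, where the tested genes as a whole were 5.56% higher and 84.0% lower. The median of the 10 differences was -0.12 on that scale, against -0.69 over all tested genes. Both scales thus place the median transporter above the median gene, and they differ in where 0 lies. After each array was centred on its median, again 7 were higher and 2 lower, where 34.6% of all tested genes were higher and 33.7% lower.

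**Figure D1:**
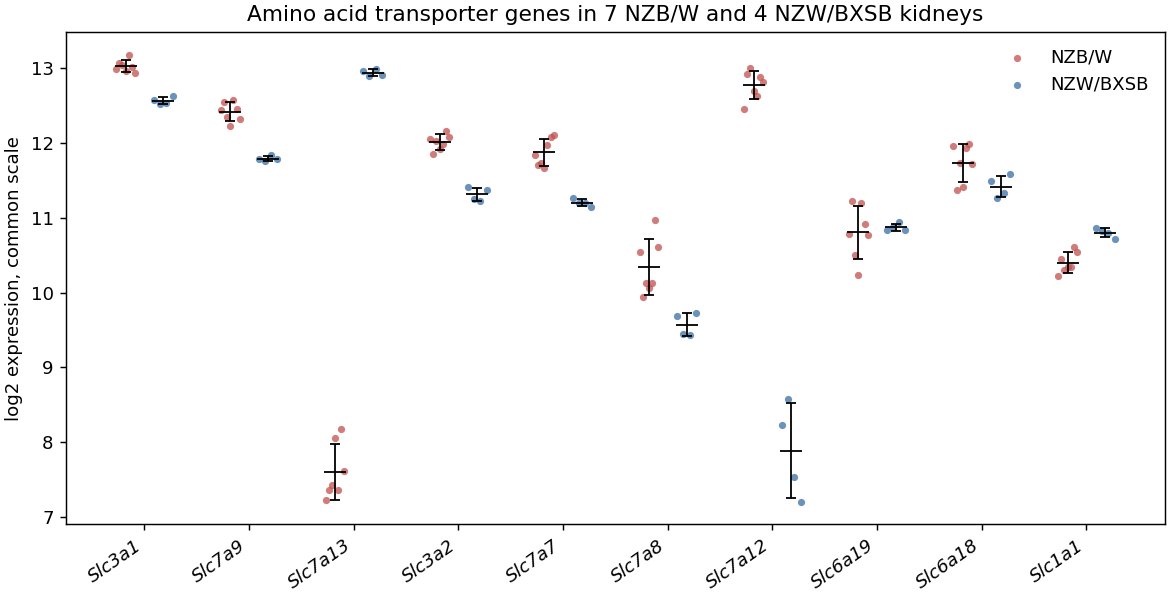
Log2 expression on the common scale (vertical axis) of the 10 transporter genes (horizontal axis) in each of 7 NZB/W and 4 NZW/BXSB kidneys, with points for kidneys and bars for the mean and SD of each strain. Slc7a12 lay at 12.77 in NZB/W against 7.89 in NZW/BXSB and Slc7a13 at 7.61 against 12.94, while the means of the other 8 genes differed by less than 1 log2 unit between the strains.

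The largest differences were those of 2 light chain genes, in opposite directions. Slc7a12 encodes the carrier Asc-2, which moves small neutral amino acids in the mouse and whose heavy chain is not known, and Slc7a13 encodes AGT1, a carrier of aspartate, glutamate and cystine in the last segment of the proximal tubule. Both are known in mice as genes whose level in the kidney depends on sex. Slc7a12 (Entrez 140918) had a lowest value of 12.45, a median of 12.81 and a highest value of 13.00 in the NZB/W kidneys, against 8.24, 8.58, 7.53 and 7.21 in the NZW/BXSB kidneys. The strains were far apart, and within NZW/BXSB replicates 1 and 2 lay above replicates 3 and 4. Its mean was 12.77 ± 0.19 over 7 NZB/W kidneys (SD) and 7.89 ± 0.63 over 4 NZW/BXSB kidneys (SD), which differ by 4.88 ± 0.21 (95% interval 4.43 to 5.33), or 29.4-fold higher in NZB/W (limma, adjusted p = 4.20e-10). The SD of Slc7a12 in NZW/BXSB ranked at percentile 99.9 of all tested genes, and in NZB/W its rank was percentile 83.1.

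Slc7a13 (Entrez 74087) had a lowest value of 7.23, a median of 7.43 and a highest value of 8.17 in the NZB/W kidneys, against 12.96, 12.90, 12.98 and 12.91 in the NZW/BXSB kidneys. No kidney of one strain came near those of the other, and the spread was on the side of NZB/W, where replicates 4 and 6 were the highest. The means were 7.61 ± 0.37 for NZB/W (SD, n = 7) and 12.94 ± 0.04 for NZW/BXSB (SD, n = 4). The difference was -5.33 ± 0.16 (95% interval -5.68 to -4.99), or 40.3-fold higher in NZW/BXSB (limma, adjusted p = 2.04e-11). For each of these 2 genes the strain with the low level was also the one with the wide spread, and the SD of Slc7a13 ranked at percentile 98.1 among NZB/W and 14.5 among NZW/BXSB kidneys. Even the low values were above the level of dim genes, the 95th percentile of genes not above baseline, which was 5.42 in NZB/W and 5.03 in NZW/BXSB. On the deposited scale the differences were 4.18 for Slc7a12 and -5.97 for Slc7a13, both larger than the offset of the scales.

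The log2 ratio of Slc7a12 to Slc7a13 within an array, in which a shift shared by both genes cancels, was higher in NZB/W by 10.21 on the common and by 10.14 on the deposited scale. Its SD was 0.37 in NZB/W and 0.64 in NZW/BXSB. Within NZB/W the 2 genes did not move as mirror images: replicate 6, the highest for Slc7a13 at 8.17, was at 12.88 for Slc7a12, and replicate 1, the lowest for both, was at 7.23 for Slc7a13 and 12.45 for Slc7a12.

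The genes whose profiles over the 11 kidneys lay nearest to that of Slc7a12, by the root mean square distance after each gene was centred on its own mean, were Ly6f (distance 0.50), the prolactin receptor gene Prlr (0.52), the corticosteroid binding globulin gene Serpina6 (0.55), Xist (0.65), whose RNA silences an X chromosome in female cells, and the organic anion transporter gene Slc22a29 (0.91). Those nearest to Slc7a13 were the protease inhibitor gene Pzp (0.35), the Y chromosome gene Ddx3y (0.39), the hydroxysteroid dehydrogenase gene Akr1c21 (0.41), the acyl-CoA synthetase gene Acsm3 (0.41) and the Y chromosome gene Eif2s3y (0.45). In NZB/W the probes of Pzp, Ddx3y and Eif2s3y, and in NZW/BXSB those of Serpina6 and Xist, lay below the level of dim genes, so their distances are limited by background. These distances describe the strain difference above all, since the 11 kidneys form 2 groups that also differ in sex. Of 12 listed kidney genes known to differ by sex, 4 were higher and 7 lower in NZB/W, against 33.3% and 36.1% of all tested genes. Xist was at least 46.5-fold higher, Prlr 4.03 and Slc22a29 3.09 higher, and the differences were -6.42 for Cyp7b1, -6.33 for Cyp2j13 and -5.76 for Cyp4a12a. Other genes of the list differed far less. Kap differed by -0.25 and was not called after median centring, and Slc22a7 was not called (0.04). The part of sex in the levels of Slc7a12 and Slc7a13 was not tested, as no kidney of the other sex of either strain was among the 11.

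**Figure D2:**
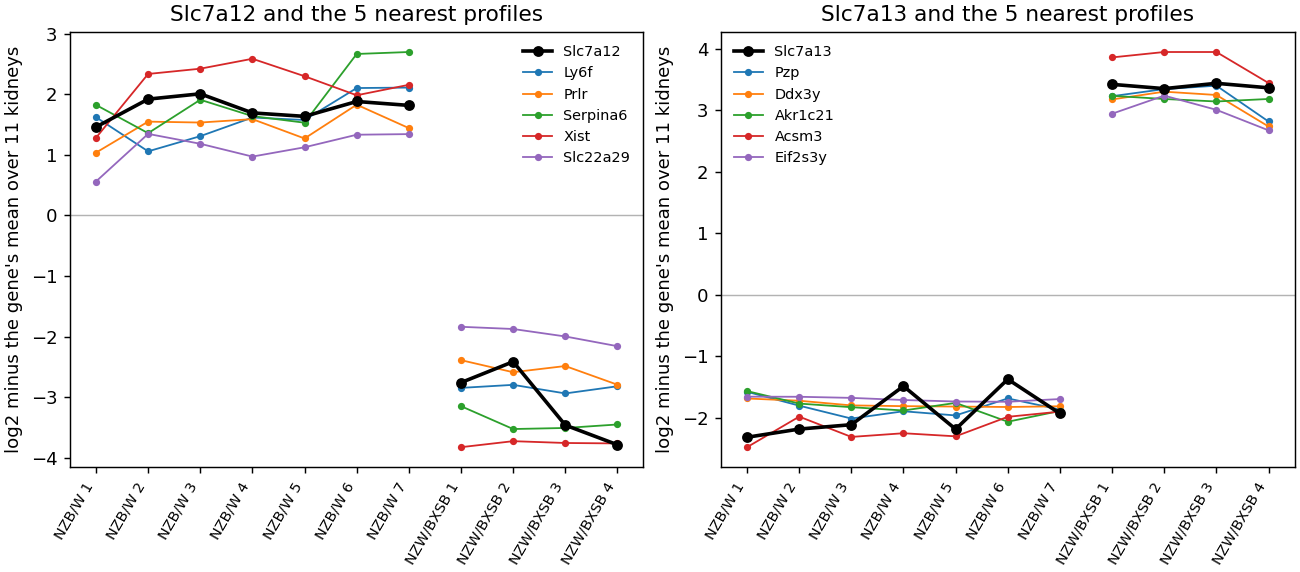
Log2 expression minus the gene's own mean over the 11 kidneys (vertical axis) for Slc7a12 and Slc7a13 in black and for the 5 genes with the nearest profiles, in each kidney (horizontal axis, 7 NZB/W and then 4 NZW/BXSB). Lines join the kidneys of a strain for legibility only. In NZW/BXSB Slc7a12 took values between 7.21 and 8.58 while each of the 5 other genes stayed within a narrower range, and in NZB/W Slc7a13 stood out in replicates 4 and 6.

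The genes next to these 2 on the chromosome did not share the size of their differences. On chromosome 3 the neighbours of Slc7a12 with a row differed by -0.04 (Ralyl, limma, adjusted p = 0.627) and -0.44 (Lrrcc1, adjusted p = 0.00239). On chromosome 4 the neighbours of Slc7a13 differed by -1.19 (Wwp1, adjusted p = 2.56e-09) and 0.22 (Atp6v0d2, adjusted p = 0.0671). Wwp1, a ubiquitin ligase gene, was thus lower in NZB/W like Slc7a13, but by a far smaller step, and Lrrcc1 was lower while Slc7a12 was higher.

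The heavy chain Slc3a1 (rBAT, Entrez 20532) and its partner Slc7a9 (b0,+AT, Entrez 30962) form the brush border carrier of cystine and of basic amino acids. Slc3a1 ranged between 12.94 and 13.18 in NZB/W with a median of 13.01, against 12.57, 12.52, 12.54 and 12.62 in NZW/BXSB. Slc7a9 ranged between 12.22 and 12.58 in NZB/W with a median of 12.43, against 11.78, 11.76, 11.83 and 11.78 in NZW/BXSB. Neither gene overlapped between the strains, and the highest kidney for both was NZB/W replicate 5. The means of Slc3a1 were 13.02 ± 0.08 for NZB/W (SD, n = 7) and 12.56 ± 0.05 for NZW/BXSB (SD, n = 4), with 0.46 ± 0.05 between them (limma, adjusted p = 3.84e-06). Those of Slc7a9 were 12.41 ± 0.13 for NZB/W and 11.79 ± 0.03 for NZW/BXSB, with 0.63 ± 0.07 between them (limma, adjusted p = 1.77e-06). Both were thus higher in NZB/W on the common scale, by 1.38-fold and 1.54-fold. As deposited, Slc3a1 was lower in NZB/W by 0.17 (adjusted p = 0.00885) and Slc7a9 differed by -0.07 (adjusted p = 0.347).

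Slc7a13 also pairs with Slc3a1 in the mouse, so that 1 heavy chain serves a light chain that was higher and one that was lower in NZB/W. The log2 ratio of Slc7a9 to Slc3a1 was higher by 0.16 in NZB/W, with SDs of 0.08 among NZB/W and 0.06 among NZW/BXSB kidneys, and the kidneys of the strains overlapped. The ratio of Slc7a13 to Slc3a1 was lower by 5.79 log2 units in NZB/W on both scales, with SDs of 0.41 among NZB/W and 0.07 among NZW/BXSB kidneys and no overlap.

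On the blood side of the tubule cell, the heavy chain Slc3a2 (4F2hc, CD98, Entrez 17254), which many cell types carry, pairs with Slc7a7 (y+LAT1, Entrez 20540), an exchanger of basic for neutral amino acids, and with Slc7a8 (LAT2, Entrez 50934), an exchanger of neutral amino acids. Slc3a2 lay between 11.85 and 12.16 in NZB/W with a median of 12.03, against 11.41, 11.25, 11.23 and 11.37 in NZW/BXSB. Slc7a7 lay between 11.67 and 12.10 in NZB/W with a median of 11.83, against 11.27, 11.19, 11.20 and 11.15 in NZW/BXSB. Slc7a8 lay between 9.95 and 10.97 in NZB/W with a median of 10.13, against 9.69, 9.45, 9.44 and 9.72 in NZW/BXSB. All 3 genes were without overlap, and the 2 highest kidneys were NZB/W replicates 6 and 7 in each. The differences were 0.70 ± 0.06 for Slc3a2 (means 12.01 ± 0.10 for NZB/W and 11.31 ± 0.09 for NZW/BXSB, limma, adjusted p = 4.39e-07), 0.67 ± 0.09 for Slc7a7 (11.87 ± 0.18 for NZB/W and 11.20 ± 0.05 for NZW/BXSB, adjusted p = 1.31e-05) and 0.77 ± 0.17 for Slc7a8 (10.34 ± 0.37 for NZB/W and 9.57 ± 0.15 for NZW/BXSB, adjusted p = 0.00101). On the deposited scale none of the 3 was called, with a difference of -0.001 for Slc3a2 (adjusted p = 0.989), -0.05 for Slc7a7 (adjusted p = 0.580) and 0.06 for Slc7a8 (adjusted p = 0.725). The deposited values of Slc3a2 lay between 11.65 and 11.93 in NZB/W, against 11.88, 11.77, 11.69 and 11.70 in NZW/BXSB, and overlapped.

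The ratios of the light chains on the blood side to their heavy chain differed between the strains by less than the spread between kidneys. The log2 ratio of Slc7a7 to Slc3a2 differed by -0.03, with SDs of 0.12 among NZB/W and 0.09 among NZW/BXSB kidneys, and that of Slc7a8 to Slc3a2 by 0.07, with SDs of 0.28 among NZB/W and 0.07 among NZW/BXSB kidneys, and both overlapped. In NZB/W the spread of Slc7a8 was wide, at percentile 98.1 of all tested genes, and was carried by replicate 6 at 10.97, replicate 7 at 10.61 and replicate 1 at 10.54. NZB/W replicate 6 also had the highest mean over the markers of the thick limb and distal nephron (10.30, with the rest of its strain between 10.04 and 10.16), and among NZB/W kidneys replicates 6 and 7 had the highest means over the proximal tubule markers (11.93 and 11.91) and over the fat markers (9.56 and 9.72) and the lowest over the leukocyte markers (6.70 and 6.79), and replicate 7 had the highest over the adrenal cortex markers (9.51). The part of these other genes in the result was not tested. Without both kidneys the differences were 0.66 for Slc3a2, 0.58 for Slc7a7 and 0.59 for Slc7a8, and all 3 were still called.

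**Figure D3:**
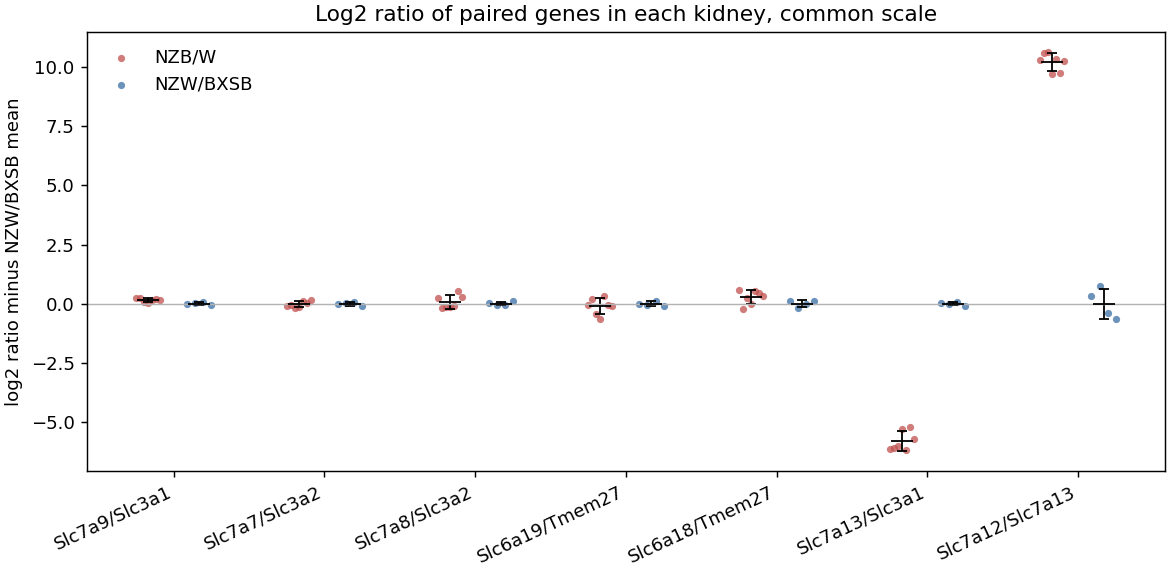
Log2 ratio of 7 pairs of genes within each array on the common scale, minus the mean of that ratio in NZW/BXSB (vertical axis), with points for kidneys and bars for the mean and SD of 7 NZB/W and 4 NZW/BXSB kidneys. The ratios within the heteromers of Slc7a9, Slc7a7 and Slc7a8 overlapped between the strains, while Slc7a13 to Slc3a1 was lower by 5.79 in NZB/W and Slc7a12 to Slc7a13 higher by 10.21.

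Slc7a7 and Slc3a2 encode the light and heavy chain of 1 carrier. On the common scale both were higher in NZB/W by nearly the same step, while as deposited neither was called. The RefSeq sequences before their starts (build GRCm38.p6) are therefore shown, 250 bases each. RefSeq windows were matched for 7 of the 10 genes, 12 windows in all. None was at hand for Slc7a12, Slc7a13 and Slc6a18. Capitals mark the core TGATGNAA of the amino acid response element or AGAACA, the core bound by androgen and glucocorticoid receptors, searched on both strands. A further motif was searched and is not reported here. The windows shown are that of 1 of the 5 starts of Slc7a7, which holds both motifs, and that of Slc3a2, which holds neither. Both windows lie inside the RefSeq span of their gene, whose upstream end is at 54420068 for Slc7a7 and 8723369 for Slc3a2. Sequence before those ends was not searched.
Slc7a7, start 2, chr14:54417703-54417952, minus strand: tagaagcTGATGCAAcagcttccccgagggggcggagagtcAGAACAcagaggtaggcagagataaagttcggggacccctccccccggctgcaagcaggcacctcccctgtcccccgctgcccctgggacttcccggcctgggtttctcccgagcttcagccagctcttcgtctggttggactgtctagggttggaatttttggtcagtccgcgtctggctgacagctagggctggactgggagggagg
Slc3a2, chr19:8713898-8714147, minus strand: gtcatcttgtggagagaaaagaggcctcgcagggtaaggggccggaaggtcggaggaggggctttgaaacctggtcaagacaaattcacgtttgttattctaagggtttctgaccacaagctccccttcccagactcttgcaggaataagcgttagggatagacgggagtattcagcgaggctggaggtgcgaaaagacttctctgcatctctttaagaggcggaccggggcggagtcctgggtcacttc
In the window of start 2 of Slc7a7, TGATGCAA stood 243 bases and AGAACA 209 bases before the start. Of all 32851 RefSeq windows of that length, 3.45% held TGATGNAA and 16.1% AGAACA. Among the other windows of the transporter genes a match was found in that of Slc6a19 (TGTTCT, the AGAACA core on the other strand, 226 bases before the start) and in those of starts 1 and 3 of Slc7a7 (TGATGAAA and AGAACA, 141 and 232 bases before the start), of which the AGAACA of start 3 is the same stretch as that of start 2, since the windows overlap. These are matches of letters in the reference mouse and not sites of binding, and the sequences of NZB/W and NZW/BXSB were not analysed here.

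Slc6a19 (B0AT1, Entrez 74338), the main sodium-dependent carrier of neutral amino acids in the brush border, had a lowest value of 10.24, a median of 10.78 and a highest value of 11.22 in NZB/W, against 10.83, 10.87, 10.94 and 10.83 in NZW/BXSB. The values of NZW/BXSB fell inside the range of NZB/W. With means of 10.80 ± 0.35 for NZB/W (SD, n = 7) and 10.87 ± 0.05 for NZW/BXSB (SD, n = 4), the strains differed by -0.07 ± 0.15 (95% interval -0.40 to 0.27, limma, adjusted p = 0.714). The spread of Slc6a19 ranked at percentile 97.8 in NZB/W, with replicate 4 the lowest and replicates 2 (11.22) and 5 (11.19) the highest. On the deposited scale it was lower in NZB/W by 0.78 (adjusted p = 2.08e-04), a step close to that of the median gene, and it was called lower by 0.35 (adjusted p = 0.0437) where each array was centred on its proximal tubule markers.

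Slc6a18 (XT3, B0AT3, Entrez 22598), which takes up glycine and other neutral amino acids further along the tubule, had a lowest value of 11.37, a median of 11.73 and a highest value of 11.98 in NZB/W, against 11.48, 11.27, 11.32 and 11.58 in NZW/BXSB. The strains overlapped, with NZB/W replicates 2 and 4 among the NZW/BXSB kidneys. With means of 11.73 ± 0.25 for NZB/W (SD, n = 7) and 11.41 ± 0.14 for NZW/BXSB (SD, n = 4), the strains differed by 0.31 ± 0.12 (95% interval 0.05 to 0.57, limma, adjusted p = 0.0350). The call did not hold in 11 of 20 alternatives, among them leaving out NZB/W replicate 1 (adjusted p = 0.0620), 3 (0.0503), 5 (0.0619) or 6 (0.0629) or NZW/BXSB replicate 1 (0.0507), 2 (0.107) or 3 (0.0919), and on the deposited scale the gene was lower in NZB/W by 0.40 (adjusted p = 0.00138). Slc6a18 and Slc6a19 are next to each other on chromosome 13, and the genes on either side of the pair differed by -0.27 (Tert, adjusted p = 0.0120) and -0.05 (Slc12a7, adjusted p = 0.561).

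None of the 4 listed genes of partner proteins of the brush border, 3 of them named here, was called by limma, nor had an unadjusted p below 0.05, whereas 69.4% of all tested genes were called. After median centring 1 of the 4, Tmem27, was called as higher (0.22, limma, adjusted p = 0.0139). On the deposited scale 3 of the 4 were called, as lower. The differences were 0.03 for Tmem27 (limma, adjusted p = 0.587), which carries both Slc6 transporters to the brush border, 0.23 for the peptidase gene Anpep (0.459) and 0.01 for the scaffold gene Pdzk1 (0.860). The log2 ratio to Tmem27 differed by -0.10 for Slc6a19, with SDs of 0.34 among NZB/W and 0.10 among NZW/BXSB kidneys, and by 0.28 for Slc6a18, with SDs of 0.29 among NZB/W and 0.14 among NZW/BXSB kidneys, and both overlapped between the strains. As deposited, the ratios differed by -0.31 for Slc6a19 and 0.08 for Slc6a18, again with overlap, so their size depends on the scale.

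Slc1a1 (EAAC1, EAAT3, Entrez 20510), the carrier of glutamate and aspartate, was, beside Slc7a13, the other gene called lower in NZB/W on the common scale. It had a lowest value of 10.22, a median of 10.34 and a highest value of 10.61 in NZB/W, against 10.86, 10.82, 10.79 and 10.71 in NZW/BXSB. The strains did not overlap, though the gap between NZB/W replicate 6 and NZW/BXSB replicate 4 was small. With means of 10.40 ± 0.14 for NZB/W (SD, n = 7) and 10.80 ± 0.06 for NZW/BXSB (SD, n = 4), the strains differed by -0.40 ± 0.07 (limma, adjusted p = 2.86e-04), or 1.32-fold higher in NZW/BXSB. As deposited, Slc1a1 differed by -1.10 (adjusted p = 3.74e-08), on the scale where Slc7a13, Slc3a1, Slc6a18 and Slc6a19 were called lower too.

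**Figure D4:**
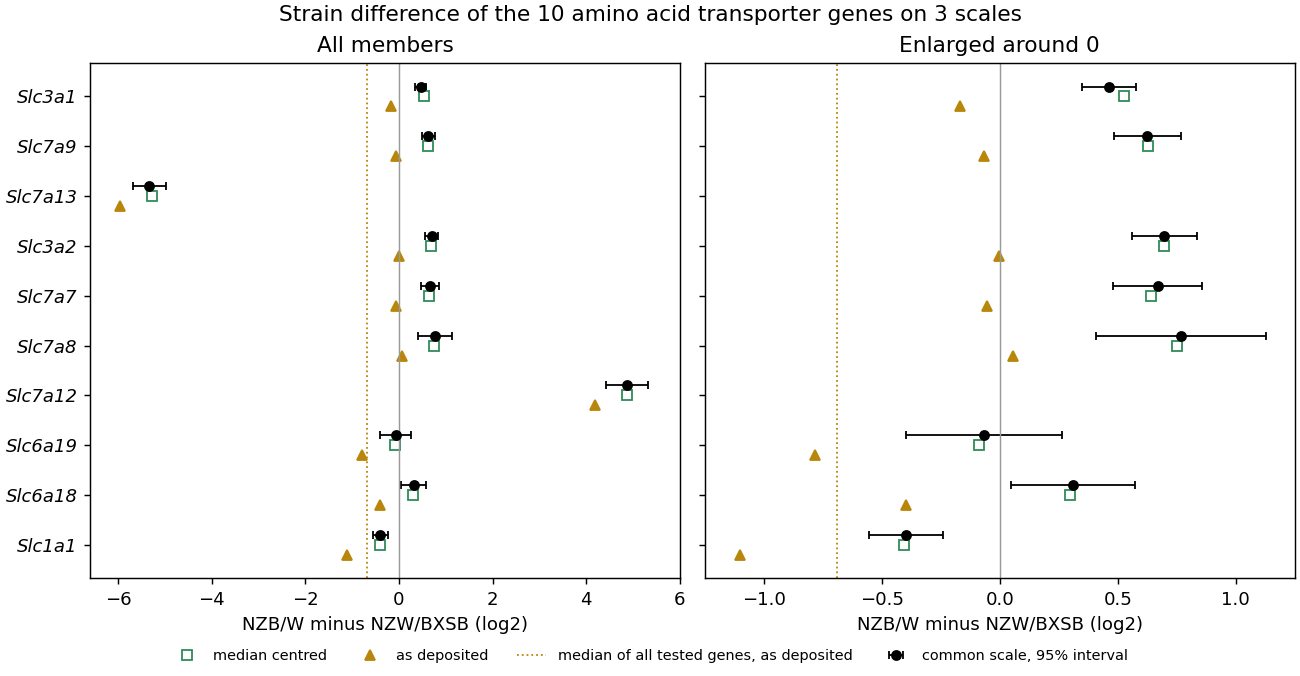
Log2 difference between the strains, NZB/W less NZW/BXSB (horizontal axis), for the 10 transporter genes (vertical axis) on the common scale with 95% intervals, after median centring and as deposited, with all genes on the left and the range around 0 enlarged on the right. The dotted line marks the median of all tested genes as deposited, -0.69, and of the 10 genes Slc7a13, Slc6a19 and Slc1a1 lie to its left as deposited.

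The other genes next to the transporters on their chromosomes differed in both directions: Slc3a1 (0.46) lies between Ppm1b (0.58) and Prepl (-0.55) on chromosome 17, Slc7a9 (0.63) between Ccdc123 (-0.53) and Tdrd12 (0.19) on chromosome 7, and Slc3a2 (0.70) between Chrm1 (0.93) and Snhg1 (0.18) on chromosome 19. Slc7a7 (0.67) and Slc7a8 (0.77) are both on chromosome 14, the first between Oxa1l (0.05) and Mrpl52 (-0.24) and the second between 1700123O20Rik (0.41) and Homez (-0.06). Slc1a1 (-0.40) lies between Rfx3 (0.17) and 4430402I18Rik (0.23) on chromosome 19. Next to Slc3a1, Slc7a9, Slc7a7, Slc7a12, Slc6a18 and Slc1a1 a called gene thus differed in the opposite direction on the common scale. Of these neighbours, Tert beside Slc6a18 was not above baseline in NZB/W. Calls were frequent in each direction (33.3% higher, 36.1% lower over the tested genes), so such a neighbour does not set a gene apart. Of the called neighbours with an opposite direction on the common scale, only Lrrcc1 (-1.03) beside Slc7a12 (4.18) kept it as deposited. Prepl, Ccdc123, Mrpl52, Tert and Rfx3 were then lower. The transporters beside them were below 0, Slc7a7 (-0.05) and Slc7a9 (-0.07) without a call. Ralyl (-0.61) beside Slc7a12 was also on the opposite side as deposited. So were 1700123O20Rik (-0.31) and Homez (-0.71) beside Slc7a8 (0.06) and Chrm1 (0.26) beside Slc3a2 (-0.001), where neither transporter was called.

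Of 44 other amino acid carriers listed, 41 had a row and 35 were tested, of which 7 were higher, 17 lower and 11 not called, so that 68.6% were called, a share near the 69.4% of all tested genes. Their median difference was -0.16, against -0.01 over all tested genes. The 5 largest on the side of NZB/W were Slc38a1 (1.14), a sodium-coupled glutamine carrier, Slc6a12 (1.08), a betaine carrier of the inner medulla, the light chains Slc7a10 (0.94) and Slc7a15 (0.63), and Slc7a1 (0.36), a carrier of basic amino acids. The 5 largest on the side of NZW/BXSB were the proline carrier Slc6a7 (-1.77, at least 3.16-fold higher in NZW/BXSB), Slc6a15 (-0.84), a carrier of branched-chain amino acids, Slc36a2 (-0.72), a carrier of proline and glycine, Slc43a2 (-0.67) and the aromatic amino acid carrier Slc16a10 (-0.65, at least 1.56-fold higher in NZW/BXSB). Slc6a7 and Slc16a10 have only a bound, since their NZB/W mean lay below the level of dim genes. The list's mean log2 value ran between 7.70 and 7.80 in NZB/W and between 7.84 and 7.86 in NZW/BXSB, without overlap, whereas that of the 10 transporters ran between 11.16 and 11.52 in NZB/W and between 10.98 and 11.11 in NZW/BXSB. As deposited, 3 of the 35 were higher and 31 lower, a lean shared by the tested genes as a whole, and Slc7a1 turned to -0.33. Slc7a2, Slc7a3, Slc7a11, Slc7a14, Slc6a14 and Slc38a5 were not above baseline in either strain.

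**Figure D5:**
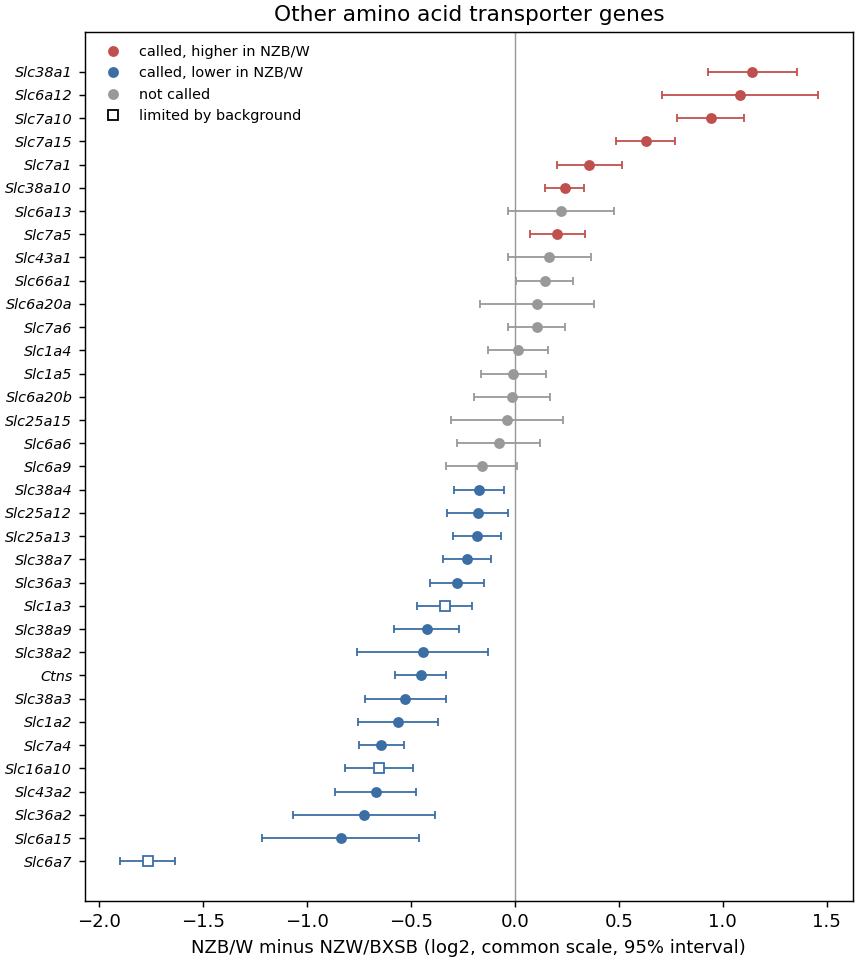
Log2 difference between the strains, NZB/W less NZW/BXSB, on the common scale with 95% intervals (horizontal axis), for the 35 other amino acid transporter genes that were tested (vertical axis, ordered by difference). Of these 7 were called higher (red), 17 lower (blue) and 11 not (grey), and open squares mark genes limited by background in 1 strain.

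Of 19 markers of the proximal tubule, which holds most of these carriers, 6 were higher and 6 lower in NZB/W on the common scale, against 33.3% and 36.1% of all tested genes. As deposited, 1 was higher and 17 lower, against 5.56% and 84.0% of all tested genes. Their differences on the common scale had a median of -0.03, and their mean log2 value ran between 11.75 and 11.93 in NZB/W and between 11.82 and 11.90 in NZW/BXSB. The largest differences were those of the lactate carrier gene Slc5a12 (1.02), the bicarbonate carrier gene Slc4a4 (0.56) and the megalin gene Lrp2 (0.48) on the side of NZB/W, and of the organic anion carrier gene Slc22a6 (-1.11) and the anion carrier gene Slc17a3 (-0.73) on the side of NZW/BXSB. When each array was centred on these 19 genes, 6 transporter genes were above and 3 below NZW/BXSB at an adjusted p under 0.05, where 16.3% of all tested genes were above and 53.2% below. Slc3a1 (0.26), Slc7a9 (0.37), Slc3a2 (0.43), Slc7a7 (0.38), Slc7a8 (0.49) and Slc7a12 (4.61) stayed higher, Slc7a13 (-5.53), Slc1a1 (-0.67) and Slc6a19 (-0.35) were lower, and Slc6a18 differed by 0.04 (limma, adjusted p = 0.773).

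Among the markers of other cells, 7 of 13 thick limb and distal nephron markers were higher in NZB/W and 6 not called, against 33.3% of all tested genes on the higher side (mean log2 value 10.04 to 10.30 in NZB/W and 9.94 to 10.001 in NZW/BXSB), led by Pvalb (0.77), Slc4a1 (0.41) and Slc12a3 (0.35). As deposited, 12 of the 13 were lower, against 84.0% of all tested genes. Of 12 leukocyte markers 5 were higher and 3 lower (6.70 to 7.02 in NZB/W and 6.73 to 6.91 in NZW/BXSB), with Itgam at -0.86. As deposited 1 was higher and 9 lower, against 5.56% and 84.0% of all tested genes. Fat markers, 1 higher and 2 lower of 6, and adrenal cortex markers, 3 higher and 5 not called of 8, spread widely between kidneys. The fat list ran between 8.45 and 9.72 in NZB/W and between 9.32 and 9.54 in NZW/BXSB, and the adrenal list ran between 5.58 and 9.51 in NZB/W and between 6.93 and 7.89 in NZW/BXSB. The part of these cells in the levels of the transporter genes was not tested.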

How the data were processed

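Whole kidneys of 7 NZB/W and 4 NZW/BXSB samples were compared. They are numbered replicates, and the labels do not say that each is another mouse. The study's account gives the same numbers of kidneys, 7 and 4, at these ages. The p-values measure only the spread between these samples, and how far that is a spread between mice is not stated. NZW/BXSB replicate 4 carries a label code that begins differently, whose meaning is not given. The authors processed the Affymetrix arrays with RMA (version not given in the sources used here) and deposited log2 values with probes grouped by Entrez gene, for 16475 genes and 64 control rows. They also deposited a Yes or No call per gene and strain for expression above a baseline set on negative control probes (unit: other). No 2 arrays held identical values, and arrays of a strain correlated at 0.985 to 0.997 over genes. The number of arrays limits the precision. Joint normalization and correction for batches are named in the study's methods, but the strains' scales differ for a reason that is unknown.

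The 11 arrays were quantile normalized (limma 3.58.1, normalizeBetweenArrays, R 4.3.3), which removes any true shift of most genes, and lmFit and eBayes were run over the 14419 genes above baseline in at least 1 strain, controls left out, on 1 model of all 11 kidneys. The fit was tested on simulated data. The study compared groups unpaired, so no block was used. For a gene not above baseline in 1 strain, or whose mean there lay under the 95th percentile of such genes (the level of dim genes), the fold is a lower bound against the higher of that level and its own mean, taken over the group. Ratios of 2 genes within an array were described without a test. Genes were named by Entrez number through RefSeq (GRCm38.p6, 16229 matched), which also gave chromosomes, gene order and promoter windows. The transporters and all gene lists were chosen with earlier results of these data known. Genes named are the 10 transporters, the called genes with the largest difference of each list (up to 5 in each direction for amino acid transporters, 3 for others), all partner genes, all listed genes known to differ by sex, the 5 nearest profiles of Slc7a12 and Slc7a13, and both chromosome neighbours. Some genes that this rule takes are not reported here. Alternatives were the deposited scale, median centring, centring on proximal tubule markers, other filters on dim genes, an intensity trend with a robust prior, stricter limits, a replicate block and leaving out kidneys. Nephritic kidneys and the NZM2410 strain were not analysed here.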

Additional observations from a re-analysis of the deposited data

Results flagged for a closer look

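Among 52 groups of values examined (each transporter gene, list mean and gene ratio in each strain), 2 held a kidney far from the others of its strain, by Dixon's test at its 95% critical value, which by chance flags about 1 in 20 groups. The mean over the other amino acid transporters was 7.80 in NZB/W replicate 6, where the next kidney was at 7.74 and the lowest at 7.70. The mean over the adrenal cortex markers was 5.58 in NZB/W replicate 2, where the next kidney was at 8.19 and the highest at 9.51.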

How the results depend on the processing

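Across 20 alternatives the number of transporter genes called stayed between 5 and 9, and it moved by over 1.5 times only with the stricter limits (adjusted p of at most 0.001 and fold limits), to 5 (4 higher and 1 lower in NZB/W), while that of the other amino acid transporters moved to 11 (4 higher and 7 lower), within a range of 11 to 34. With the replicate number as a block, 8 transporter genes and 22 other amino acid transporters were called. The deviations of same-numbered kidneys from their strain means had r = -0.08, 0.28, -0.002 and -0.13 for replicates 1, 2, 3 and 4. Only replicate 2 of NZW/BXSB was matched best by its own number. So few values cannot tell whether the numbers mark a pairing. Leaving out 1 kidney gave 8 to 9 transporter genes and 23 to 25 other ones. Slc7a12 and Slc7a13 kept direction and call under all 20 alternatives (4.18 to 5.11 and -5.97 to -5.27). On the deposited scale the sign turned for Slc7a7 (-0.0528), Slc7a9 (-0.0662), Slc3a1 (-0.17), Slc3a2 (-0.000996) and Slc6a18 (-0.40), by construction of an offset shared by most genes, and the 10 transporters were called 1 higher and 5 lower. Slc6a19 took values of -0.137 to 0.0275 with 1 kidney left out, the highest without NZB/W replicate 4 (adjusted p = 0.850), the log2 ratio of Slc7a7 to Slc3a2 -0.0643 to 0.000248, the highest without NZW/BXSB replicate 3, and that of Slc7a8 to Slc3a2 -0.00660 to 0.111, the lowest without NZB/W replicate 6, all close to 0. Slc6a18 also lost its call with the replicate block (0.20, adjusted p = 0.147) and with both NZB/W replicates 6 and 7 left out (0.26, adjusted p = 0.0939), where 8 transporter genes were called; the cause was not tested. Which of the common and the deposited scale is the true one is not known, so small differences depend on the choice between them.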
